A study of Homo sapiens with 2 samples.

Results

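AP-1 is a family of paired transcription factors built from the Fos proteins (FOS, FOSB, FOSL1, FOSL2), the Jun proteins (JUN, JUNB, JUND) and relatives such as JDP2 and BATF3. Their expression was set side by side in both sorted fractions of J82, an established human bladder cancer cell line. The 9 genes were chosen by name, with earlier results of these data known. Each was read from the probe sets that the array's annotation gives to that symbol alone. All 9 were measured, of 14232 genes measured in all. The cells were grown in DMEM with serum and no treatment, stained with the DNA dye Hoechst and sorted by flow cytometry. Side population (SP) cells keep little of the dye and non-side population (NSP) cells keep it. RNA of each fraction was hybridised to 1 human exon array. With 1 array per population there is no error between samples and no test, and every difference describes these 2 arrays only. J82 is a single tumour line, and how many cells were sorted is not given in the sources used here.

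AP-1 proteins share a basic region that contacts DNA and a leucine zipper through which they pair. Jun proteins can pair with each other or with Fos proteins, whereas Fos proteins need a Jun-type partner, and the pairs bind the DNA words TGACTCA and TGACGTCA. FOS, FOSB, JUN and JUNB are immediate early genes, transcribed within minutes of growth factor, cytokine or stress signals, and their mRNAs are short-lived. In epithelial tumours AP-1 is known for driving genes of proliferation, invasion and inflammation.

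All 4 Fos genes and all 3 Jun genes had a higher signal in SP than in NSP, and JDP2 and BATF3 had differences of -0.04 and -0.03 on the log2 scale. JUN had the largest difference of the family at 1.71-fold, followed by FOS at 1.65-fold and FOSB at 1.53-fold. No member reached 2-fold. All values are signals as deposited, taken to be on the log2 scale. The difference is always SP minus NSP, and a fold is 2 raised to that difference. A gene counts as above the floor when its higher value reaches 7.44, the median of all values in the table. The 7 Fos and Jun genes were above the floor on both arrays, so the floor did not select them through SP alone.

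FOS, the partner of Jun in the classical AP-1 pair, had a log2 signal of 11.68 in SP and 10.96 in NSP, a difference of 0.72. FOSB, a close relative that is also induced within minutes, had 11.47 in SP and 10.86 in NSP, a difference of 0.62. FOSL2, which encodes FRA2, had 9.38 in SP and 8.88 in NSP, a difference of 0.50. These genes were each higher on the SP array. FOSL1 encodes FRA1, a later and more stable Fos protein that is often raised in invasive tumour cells. Its signal was 8.74 in SP and 8.33 in NSP, a difference of 0.41 or 1.33-fold. The Fos genes thus lay between 0.41 and 0.72, with a median of 0.56. A further probe set, annotated to both LARP1B and FOSL1, was left out by the rule and read 5.44 in SP and 5.31 in NSP.

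The Jun genes spread more widely than the Fos genes. JUN, a strong activator, read 10.27 in SP and 9.50 in NSP, a difference of 0.77. JUNB, which can restrain JUN when they pair, read 10.30 in SP and 10.07 in NSP, a difference of 0.23 or 1.17-fold. JUND is the Jun gene that is expressed most steadily in resting cells, and it read 10.09 in SP and 9.99 in NSP, a difference of 0.10 or 1.07-fold. Among the Jun genes only JUN passed 1.5-fold, and whether the Jun genes differ from one another in this respect could not be tested with 1 array each.

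JDP2 encodes a Jun partner that represses AP-1 sites, and BATF3 encodes a small partner of Jun best known from dendritic cells. JDP2 read 7.29 in SP and 7.34 in NSP, a difference of -0.04. BATF3 read 7.25 in SP and 7.28 in NSP, a difference of -0.03. Both values of both genes lay under the floor, where robust multi-array averaging (RMA) compresses differences, so these values do not show that the genes were equal.

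**Figure D1:**
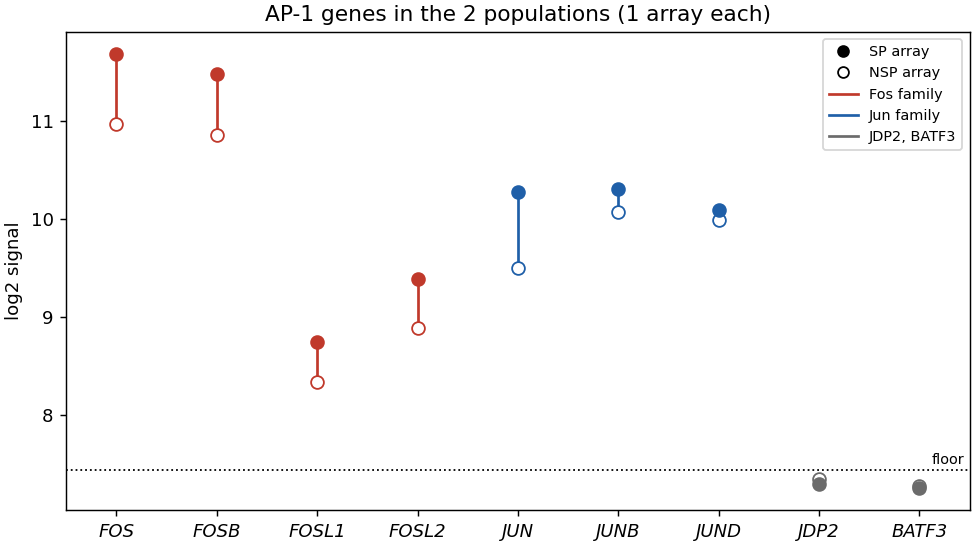
Log2 signal of the 9 AP-1 genes (y axis) on the SP array (filled points) and the NSP array (open points), with 1 array per population and lines joining both values of a gene. The SP point is above the NSP point for the 4 Fos and 3 Jun genes, with the longest line for JUN, and JDP2 and BATF3 lie under the floor of 7.44 (dotted line). Heights are not compared between genes, since each has its own probes.

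Set against the other genes of the arrays, the Fos and Jun genes lay to the SP side. The members were chosen with earlier results of these data known, so the shares below are a description only. Of the 7549 genes above the floor, 40.1% were higher in SP at all and 59.6% lower, and the median difference was -0.05. Of the 7 AP-1 genes above the floor, 7 were higher and 0 lower, with a median of 0.50. At least 1.5-fold higher in SP were 3 of the 7 members (JUN, FOS and FOSB), beside 3.1% of all genes above the floor (234 genes). None was at least 1.5-fold lower, beside 1.43% (108 genes). At 2-fold the members numbered 0 higher and 0 lower, beside 0.609% and 0.119% of all genes above the floor. A difference as large as that of JUN or larger was found in 1.43% of genes above the floor, for FOS in 1.89%, for FOSB in 2.69% and for FOSL2 in 4.28%. For FOSL1 it was 6.09%, for JUNB 13.0% and for JUND 25.5%. JUNB and JUND thus lay among the bulk of genes and JUN, FOS and FOSB in the upper tail. Over all 9 members, dim ones included, the median was 0.41, beside 0.00 for all 14232 genes. When the trend of the difference on signal level was removed, the 1.5-fold counts over the 7549 genes above the floor became 292 higher and 80 lower, and the members past it were still 3.

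The only spread that the table holds is the one between probe sets of the same gene on the same arrays. Over the 97 genes above the floor with more than 1 probe set, the SD of the difference between probe sets of a gene was 0.30. JUN, FOS, FOSB, FOSL2 and FOSL1 differed by more than this SD and JUNB, JUND, JDP2 and BATF3 by less. A difference as large or larger toward SP was found in 1.43% (JUN) to 6.09% (FOSL1) of genes above the floor. The difference itself had an SD of 0.28 over those genes, so passing 0.30 does not by itself set a member apart. Each member has 1 probe set, so none has a spread between probe sets of its own. That technical spread is not an error between cultures or sorts. In sorted bulk cells, more RNA per cell and more cells with the transcript cannot be told apart.

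**Figure D2:**
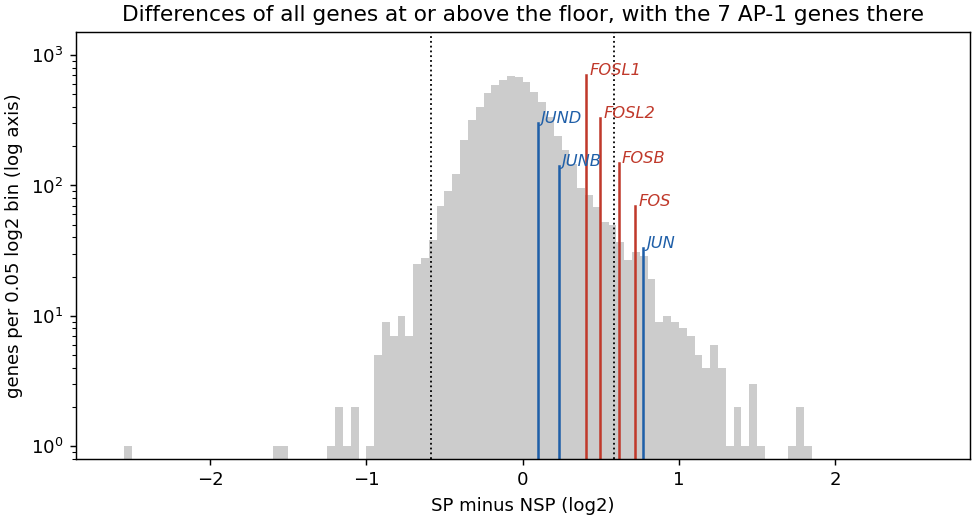
Histogram of SP minus NSP (log2, x axis) for the 7549 genes above the floor, with the number of genes per bin on a log axis. Vertical lines mark the 3 Jun genes (blue) and the 4 Fos genes (red), line heights carry no value, and dotted lines mark 1.5-fold each way. JUN, FOS and FOSB lie beyond the upper dotted line, and JUND at 0.10 lies within the main body of genes.

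The promoters of members with large and small differences are shown because the family is known to control its own transcription through sites close to the start. RefSeq promoter windows on GRCh38.p14 were matched by symbol for 7 of the 9 members (not FOSL1 and BATF3). The 250 bases before the start are printed 5′ to 3′ along the gene. Capitals mark the words TGACGT, TGACGTCA (which contains TGACGT) and TGACATCA, on either strand.
FOS, chr14:75278578-75278827, plus strand: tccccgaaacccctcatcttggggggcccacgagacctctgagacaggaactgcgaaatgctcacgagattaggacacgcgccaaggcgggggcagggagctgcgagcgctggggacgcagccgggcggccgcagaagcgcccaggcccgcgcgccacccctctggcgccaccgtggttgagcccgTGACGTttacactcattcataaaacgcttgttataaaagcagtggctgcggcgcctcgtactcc
FOSB, chr19:45467746-45467995, plus strand: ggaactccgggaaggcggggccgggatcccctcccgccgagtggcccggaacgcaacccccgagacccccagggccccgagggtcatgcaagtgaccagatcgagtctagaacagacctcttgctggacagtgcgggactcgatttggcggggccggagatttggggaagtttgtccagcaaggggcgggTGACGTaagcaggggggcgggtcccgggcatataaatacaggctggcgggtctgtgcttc
JUN, chr1:58784048-58784297, minus strand: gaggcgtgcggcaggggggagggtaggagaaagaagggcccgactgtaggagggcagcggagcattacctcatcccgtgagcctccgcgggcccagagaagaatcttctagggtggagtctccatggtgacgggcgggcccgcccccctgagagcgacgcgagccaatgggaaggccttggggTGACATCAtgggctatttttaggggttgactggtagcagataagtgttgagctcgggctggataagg
JUNB, chr19:12791236-12791485, plus strand: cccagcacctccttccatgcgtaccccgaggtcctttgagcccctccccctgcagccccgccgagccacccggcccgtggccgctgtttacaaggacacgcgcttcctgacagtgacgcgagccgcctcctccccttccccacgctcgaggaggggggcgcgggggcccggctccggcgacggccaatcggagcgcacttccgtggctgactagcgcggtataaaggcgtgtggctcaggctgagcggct
JUND, chr19:18281623-18281872, minus strand: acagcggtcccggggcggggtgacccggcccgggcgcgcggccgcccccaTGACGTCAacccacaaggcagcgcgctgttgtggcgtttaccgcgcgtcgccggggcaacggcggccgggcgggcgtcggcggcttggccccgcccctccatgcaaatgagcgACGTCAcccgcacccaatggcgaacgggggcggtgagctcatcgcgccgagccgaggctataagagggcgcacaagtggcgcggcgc

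In the FOS window TGACGT, the core of the cyclic AMP response element, lay 64 to 59 bases before the start. FOSB had TGACGT 60 to 55 bases before its start, and FOSL2, whose window is not printed, 66 to 61 bases before. JDP2 held it in 1 of its 3 windows. Across all 35116 windows of this length, 7.1% held TGACGT. JUN had no TGACGT and held TGACATCA, a variant known as the site through which JUN binds its own promoter, 67 to 60 bases before the start, a word found in 2.37% of all windows. JUND held the full TGACGTCA 200 to 193 bases before the start (1.65% of all windows) and a second TGACGT on the other strand 87 to 82 bases before. JUNB held neither TGACGT nor TGACATCA. TGACTCA (4.2% of all windows) and the CArG box bound by SRF (1.16%) were in none of the windows of the 7 members. FOS, FOSB and JUNB also held TATAAA within 33 bases of the start (10.7% of all windows hold it anywhere). The GC box GGGCGG was in 6 of the 7 members, all but JUNB, with JDP2 counted over its 3 windows. Of all windows, each counted singly, 42.6% held it. With differences in brackets, TGACGT and GGGCGG both occurred in FOS (0.72), FOSB (0.62), FOSL2 (0.50), JUND (0.10) and JDP2 (-0.04). JUN (0.77) held GGGCGG without TGACGT, and JUNB (0.23) held neither. Whether these words bear on the differences was not tested. A match describes the letters only, and no match says only that the word is not in this window.

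Other genes around AP-1 were counted in 6 further lists, also chosen with earlier results of these data known. Other factors with a basic leucine zipper, some of which pair with Fos or Jun, were measured for 29 of 35 genes, of which 20 lay above the floor. At least 1.5-fold higher were 5 of the 20 and none lower, beside 3.1% and 1.43% of all genes above the floor. The median over the 20 was 0.23, beside -0.05. ATF3, a stress-induced partner of Jun, read 9.75 in SP and 8.69 in NSP, or 2.08-fold higher. NFIL3, a repressor of the same class, was 1.76-fold higher, ATF4, the main factor of the integrated stress response, 1.73-fold, CREB1, which mediates cyclic AMP signals, 1.73-fold and DDIT3, the stress factor known as CHOP, 1.70-fold. The small Maf gene MAFG had the largest difference the other way at -0.53, and ATF2, a classical partner of JUN, had 0.25.

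Of 25 listed kinases that signal to AP-1, 17 were measured and 9 were above the floor. None of the 9 reached 1.5-fold either way, beside 3.1% higher and 1.43% lower of all genes above the floor, so this count is near the background. Their differences ran from -0.13 for MAPK3, which encodes ERK1, to 0.18 for MAP2K3, an activator of p38. RPS6KA3, which encodes the kinase RSK2, and MAP3K7, which encodes TAK1, had 0.18 and 0.17. The genes of the Jun kinases JNK1 and JNK2, MAPK8 and MAPK9, had 0.08 and -0.13. Kinase activity was not measured by these arrays.

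Factors that bind the FOS and JUN promoters, or act there as coactivators, were measured for 9 of 12 genes, 8 above the floor. CREB1, which also belongs to the list of other factors with a basic leucine zipper, read 10.44 in SP and 9.66 in NSP. MRTFA, an SRF coactivator that responds to actin, read 8.59 in SP and 7.91 in NSP, or 1.61-fold higher. These were the 2 genes of the 8 past 1.5-fold, both higher, beside 3.1% of all genes above the floor. The median was 0.15. MEF2D had 0.30 and ELK3 0.19, whereas SRF itself read 9.66 on both arrays, and its partners ELK1 and ELK4 had -0.02 and -0.08.

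Genes that act on the stability of FOS and JUN mRNA or protein were measured for 11 of 12, with 8 above the floor. Of these 8, 3 passed 1.5-fold toward SP and none toward NSP, beside 3.1% and 1.43% of all genes above the floor. Their median was 0.46. ZFP36 and its relatives bind AU-rich elements and speed the decay of short-lived mRNAs such as FOS. ZFP36L1 read 10.69 in SP and 9.82 in NSP, or 1.83-fold higher. ZFP36 was 1.54-fold higher (10.01 in SP and 9.38 in NSP) and ZFP36L2 1.44-fold. TRIB1, an adaptor of the COP1 ubiquitin ligase, was 1.66-fold higher. ITCH, a ubiquitin ligase of the Jun proteins, had 0.39. KHSRP, which promotes decay of AU-rich mRNAs, had -0.22, and ELAVL1, which stabilises them, had -0.24.

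Among 10 cofactors of AP-1, 8 were measured and all 8 were above the floor. Of these, 4 were higher and 4 lower, beside 40.1% and 59.6% of all genes above the floor. Their median was 0.04, beside -0.05. NR3C1, the glucocorticoid receptor, which can repress AP-1, was 2-fold higher (9.35 in SP and 8.35 in NSP). It was the only one of the 8 past 1.5-fold, beside 3.1% higher and 1.43% lower of all genes above the floor. The deacetylase gene SIRT1 was 1.42-fold higher and the acetyltransferase gene CREBBP 1.34-fold, and COPS5, a coactivator of JUN, had -0.31.

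Of 36 genes known to respond to AP-1, 30 were measured and 19 were above the floor. At least 1.5-fold higher were 7 of the 19 and none lower, beside 3.1% and 1.43% of all genes above the floor. Higher at all were 14 of 19, beside 40.1%, and the median was 0.23, beside -0.05. CCL2, a monocyte chemokine gene, was 2.45-fold higher (11.65 in SP and 10.35 in NSP). DUSP1, which inactivates MAP kinases, was 2.34-fold higher (12.60 and 11.37), and the neutrophil chemokine gene CXCL8 2.01-fold (10.24 and 9.23). HMOX1, VEGFA, IL6 and PLAU, which encodes urokinase, were between 1.51-fold and 1.74-fold higher. Several of these genes also respond to NF-kB or other factors, so the list is not specific to AP-1. The matrix metalloproteinase genes, the textbook AP-1 targets, lay under the floor: MMP1 read 4.75 in SP and 4.69 in NSP, MMP3 4.75 and 4.63, and MMP13 4.46 on both arrays. The cyclin gene CCND1 had -0.23, the connexin gene GJA1 -0.39, the urokinase receptor gene PLAUR -0.09 and TIMP1 -0.15. Genes listed as responsive thus lay on both sides of 0.

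**Figure D3:**
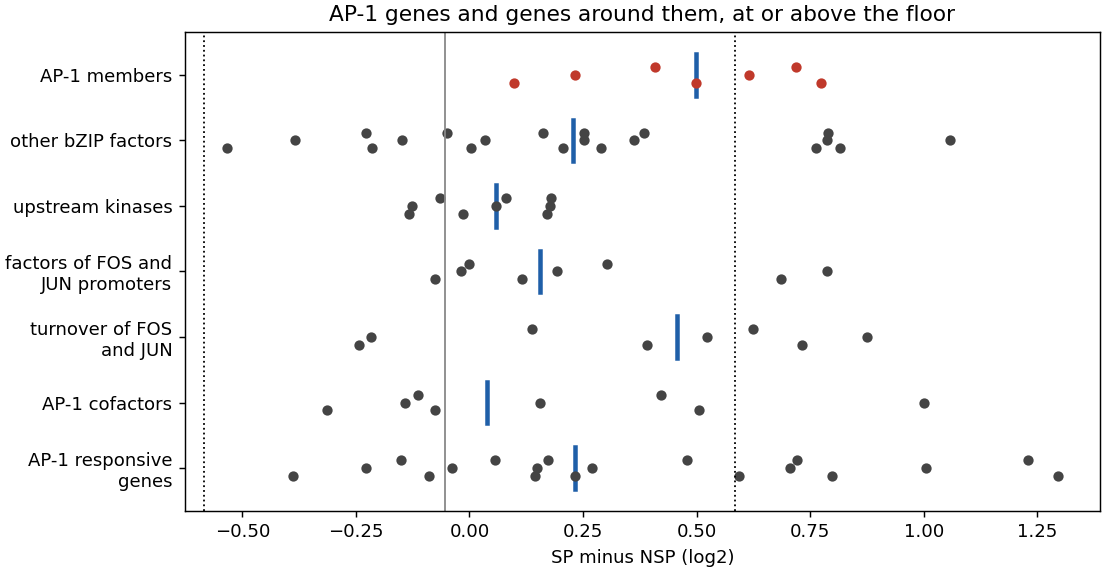
SP minus NSP (log2, x axis) for the genes above the floor in each list (y axis), 1 point per gene, AP-1 members in red, with vertical jitter that carries no value. Blue bars are list medians, the grey line is the median of all genes above the floor (-0.05) and dotted lines mark 1.5-fold each way. The 9 kinases lie between -0.13 and 0.18, and each other list has genes beyond the upper dotted line or, for the cofactors, 1 gene.

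The labelled cell type was set against markers. Of 13 measured urothelial and epithelial markers, 6 were above the floor. KRT8 was bright (13.18 in SP and 12.77 in NSP), as was KRT18 (10.57 and 10.32), whereas EPCAM read 4.42 on both arrays and CDH1, GATA3, UPK1A, UPK1B, UPK2 and UPK3A were under the floor. PPARG was 1.62-fold and KRT8 1.34-fold higher in SP, whereas KRT19 had 0.15, KRT7 0.02 and FOXA1 -0.06. Of the 6 above the floor, 5 were higher and 1 lower, beside 40.1% and 59.6% of all genes above the floor. Over all 13, 9 were higher and 3 lower, with -0.23 for CDH1 and -0.18 for UPK3A. The part of these markers in the AP-1 differences was not tested. Of 5 measured immune markers, CD14 and CD68 were above the floor, with differences of 0.09 and -0.31, and the leukocyte gene PTPRC read 3.74 in SP and 3.80 in NSP. The immune list had a median signal of 6.18 in SP and 6.11 in NSP. None of the 4 endothelial markers was above the floor, with values up to 6.43 in SP and 6.29 in NSP.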

How the data were processed

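The authors deposited log2 expression values for 2 arrays, 1 of SP and 1 of NSP cells, made with RMA and Partek per the submitters' processing notes. As a method, RMA removes background, brings arrays to a common distribution and merges the signals of each set's probes. No source used here names versions, filters or a genome build. The number of arrays limits the precision.

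Of 22011 probe sets, 14432 had a single symbol, 2408 several and 5171 none. Symbols were updated through Entrez identifiers (RefSeq, GRCh38.p14), which matched 14404. A gene's value is the mean over its probe sets (14232 genes). No test was run, since each population has 1 array. Members, lists and the naming rule were chosen with earlier results of these data known. The rule named all members and from each list the 4 above-floor genes that differed most in either direction. Other list genes and the words TGACGT, TGACATCA and TATAAA were chosen after values or sequences were seen. No protein comparison was made. Counting was tested on simulated data. Alternatives were other floors, centring, lowess trend removal (span 0.3), quantile normalisation and the brightest probe set. Python 3.11.15, numpy 2.4.6, pandas 2.3.3, statsmodels 0.14.6 and matplotlib 3.10.9 were used.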

Additional observations from a re-analysis of the deposited data

How the results depend on the processing

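Of 6 alternatives, 4 recompute single values: centring, lowess trend removal, quantile normalisation and the brightest probe set. The median of all genes was 0.00 and each member has 1 probe set. Centring and the brightest probe set thus could not change a member's value. Counts and medians under centring could not differ either. Lowess trend removal and quantile normalisation left the sign of the difference of all 9 members as it was, with shifts from -0.02 to 0.09. The largest shifts came from removing the trend on signal level, under which JUN had 0.86, FOS 0.80 and FOSB 0.70. The count of members at least 1.5-fold higher was 3 under each alternative. The other floors could not change that count, since JUN, FOS and FOSB were above the floor on both arrays. JDP2 and BATF3, under the floor, had only -0.04 and -0.03. The median of the members ran from 0.41 to 0.47, or 0.50 over the 7 above the floor. Of 102 counts and medians, 98 equalled the reported value, and the others stayed within 1.5 times of it or within the SD between probe sets. One of them was the turnover list, with 4 genes in place of 3 at least 1.5-fold higher when the trend on signal level was removed. Among the 7549 genes above the floor, the 1.5-fold counts were 234 higher and 108 lower, against 292 and 80 without the trend on signal level. No paired analysis was possible because each population has 1 array. With 2 arrays, none of these settings tells the error between samples, and JDP2 and BATF3 are limited by signals under the floor.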

Other observations

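The nearest measured protein-coding gene on each side of every member, by RefSeq order, was read, 16 genes that are no member. Of these, 9 were above the floor, 6 of the 9 were lower in SP, and none reached 1.5-fold either way, beside 59.6% lower at all, 3.1% at least 1.5-fold higher and 1.43% at least 1.5-fold lower among all genes above the floor. These counts are near the background. Their differences ran from -0.40 for NEK9, with 1 protein-coding gene between it and FOS, to 0.45 for MYSM1, beside JUN. ERCC1, beside FOSB, had -0.32 and LSM4, beside JUND, -0.31. FOS and JDP2 are themselves neighbours on chromosome 14 with no protein-coding gene between them, and had 0.72 and -0.04. These neighbours were chosen by position after the members' values were known.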
